A study of Mus musculus with 25 samples.

Results

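The genes described here are 9 liver enzymes that break down amino acids or run the methionine cycle: Tat, Hpd, Hgd and Fah of tyrosine breakdown, Tdo2 of tryptophan breakdown, Mat1a, Gnmt and Bhmt of the methionine cycle, and Sds of serine breakdown. They were chosen by gene symbol, and all 9 were found among the 30524 genes that the 5 expression tables list. All 9 also stood among the 24774 genes listed in every table and passed the filter on low values in all 25 libraries. No measured value entered that choice as a rule, but the list was drawn up with earlier results of these data known.

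The liver is the main organ of amino acid breakdown. Tyrosine is taken through an aminotransferase, 2 dioxygenases and a hydrolase to fumarate and acetoacetate, and tryptophan enters the kynurenine pathway through Tdo2. In the methionine cycle the liver makes S-adenosylmethionine, the donor of most methyl groups in the cell, spends it on methyl transfer, and turns the resulting homocysteine back to methionine. These enzymes are typical of mature hepatocytes, and several of them are known to follow fasting, glucocorticoids, glucagon and dietary protein.

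Whole-liver RNA was sequenced from male C3H/HeJ mice, a strain prone to liver cancer, that were 5 weeks old when obtained. Untreated mice (n = 5) received saline injections and later the drug vehicles. The other groups received diethylnitrosamine (DEN), an alkylating liver carcinogen, at 25 mg/kg by intraperitoneal injection on 2 days a week in 5 cycles of treatment and rest spanning 4 months. After 1 month of rest, the mice were given vehicles (DEN, n = 6), caffeine at 50 mg/kg 3 times a week (DEN_CAF, n = 5), sorafenib, a multikinase inhibitor used against liver cancer, at 30 mg/kg 2 times a week (DEN_SOR, n = 4), or both drugs (DEN_CAF_SOR, n = 5), by gavage for 3 weeks. No group had either drug without the carcinogen, and whether a piece of liver held tumour is not given in the sources used here.

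Each library held 14750278 to 21992613 reads assigned to genes, and each of the 9 enzymes 885 to 137046 reads per library. Levels are given as FPKM, which scales the reads of a gene to its length and to the reads assigned in the library, and were computed here from recovered reads. All 7 of the hepatocyte-defining markers found in the tables, albumin among them, were abundant in every library. The share of reads from the mitochondrial chromosome averaged 19.2% (SD 9.51, n = 10) in the libraries numbered 3 or 4 in any group and 7.46% (SD 0.967, n = 15) in the others. In Untreated 3, 4 and 5, Xist, an RNA of the female inactive X, had 13370 to 29770 reads against at most 21 in any carcinogen library, and Ddx3y, a Y-linked gene, had at most 84 reads, which goes against the male label. Ddx3y had 132 reads in DEN 4 and at least 914 in every library other than DEN 4 and Untreated 3, 4 and 5. Every comparison with the Untreated group was therefore also made without these 3 libraries. DEN 4 stood apart from the other DEN libraries in the enzymes themselves as well as in Ddx3y, and limma values of comparisons with DEN are given with and without it.

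Of the 9 genes, 7 have a promoter in the RefSeq table used here (build GRCm38.p6, while the reads were counted on GRCm39, so no coordinate was carried between the builds). The 250 bases before the start site are shown for Hgd, Tdo2, Gnmt and Hpd because every pair of these 4 correlated at 0.71 or more between mice of the same group once DEN 4 was left out, as described further on. They run 5′ to 3′ on the gene's strand, and capitals mark matches to any of 10 short motifs searched on both strands. Their positions are chr16:37579903-37580152 (plus strand) for Hgd, chr3:81975729-81975978 (minus) for Tdo2, chr17:46729166-46729415 (minus) for Gnmt and chr5:123182724-123182973 (minus) for Hpd.
Hgd: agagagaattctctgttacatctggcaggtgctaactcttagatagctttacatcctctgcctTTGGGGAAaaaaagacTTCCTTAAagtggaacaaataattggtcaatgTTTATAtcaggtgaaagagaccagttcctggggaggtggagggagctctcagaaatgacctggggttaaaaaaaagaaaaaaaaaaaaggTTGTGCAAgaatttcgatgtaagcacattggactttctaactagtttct
Tdo2: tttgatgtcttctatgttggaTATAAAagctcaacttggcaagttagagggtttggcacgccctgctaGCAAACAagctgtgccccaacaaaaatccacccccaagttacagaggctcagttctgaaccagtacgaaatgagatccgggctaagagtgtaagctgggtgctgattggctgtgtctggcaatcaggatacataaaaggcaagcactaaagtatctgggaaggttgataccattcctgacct
Gnmt: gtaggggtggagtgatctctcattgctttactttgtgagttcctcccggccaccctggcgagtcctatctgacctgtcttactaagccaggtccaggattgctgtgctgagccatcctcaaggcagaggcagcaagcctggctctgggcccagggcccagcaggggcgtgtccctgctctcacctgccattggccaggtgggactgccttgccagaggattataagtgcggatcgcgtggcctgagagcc
Hpd: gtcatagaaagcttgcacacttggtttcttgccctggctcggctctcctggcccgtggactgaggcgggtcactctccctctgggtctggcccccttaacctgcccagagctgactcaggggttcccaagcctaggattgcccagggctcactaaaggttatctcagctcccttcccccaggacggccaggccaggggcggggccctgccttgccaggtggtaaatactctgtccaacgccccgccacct

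The Hgd window held TTNNGNAA, a pattern of C/EBP factors, at -187 and -49 from the start and on the other strand at -171, and TATAAA on the other strand at -139. The Tdo2 window held TATAAA at -229 and TGTTTGC, a forkhead-type pattern, on the other strand at -182. Over the windows of the same length before 27025 mouse genes, TTNNGNAA was present in 36.9%, TATAAA in 13.0% and TGTTTGC in 4.3%. Neither the Gnmt nor the Hpd window held any of the 10 motifs, which also included AGAACA (a core pattern of the glucocorticoid receptor, 16.2% of windows), CAAAGTCCA (HNF4, 0.381%), TGTTTAC (forkhead, 3.09%), TGACGTCA and its core TGACG (cyclic AMP response, 1.62% and 17.9%), CACGTG (E-box, 6.05%) and TTATGTAA (D-box, 0.862%). A match to TGACGTCA also matches TGACG. The GC content of the 4 windows was 38.8% for Hgd, 46.4% for Tdo2, 60.4% for Gnmt and 62.8% for Hpd. No motif was shared by all 4 in this stretch.

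Tyrosine breakdown begins with Tat (tyrosine aminotransferase, ENSMUSG00000001670, GRCm39 chr8:110717069-110726435, plus strand), a textbook glucocorticoid-induced gene. Tat measured 339.9, 335, 235, 447 and 379.7 FPKM in Untreated mice 1 to 5. In DEN it ran from 124 through a median of 353 to 1097 FPKM. In DEN_CAF it was 723, 281, 111, 183 and 126, in DEN_SOR 781, 649, 1051 and 108, and in DEN_CAF_SOR 253, 228, 1107, 296 and 434. The Untreated values lay inside the range of each carcinogen group, and 1 mouse each in DEN, DEN_SOR and DEN_CAF_SOR was above 1000 FPKM.

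The second enzyme is Hpd (hydroxyphenylpyruvate dioxygenase, ENSMUSG00000029445, chr5:123309870-123320790, minus strand). Untreated mice held 1251, 1056, 1455, 1246 and 1264 FPKM, and DEN mice 75.5 to 1172 with a median of 917. All 6 DEN values were below the Untreated median, and 4 of 6 were below the whole Untreated range, and DEN 4 was the mouse at 75.5. Hpd was 1741, 1059, 677, 699.5 and 1308 FPKM in DEN_CAF, 1096, 1509.8, 1167 and 870.1 in DEN_SOR, and 886, 988, 1022, 848 and 1244 in DEN_CAF_SOR, so that each of these groups overlapped both Untreated and DEN.

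Hgd (homogentisate dioxygenase, whose loss causes alkaptonuria, ENSMUSG00000022821, chr16:37400515-37452382, plus strand) was the least abundant of the 9 at a mean of 161.8 FPKM over all libraries. It ran from 149 to 197 FPKM in Untreated, 38.2 to 194 in DEN, 104 to 274 in DEN_CAF, 104 to 258 in DEN_SOR and 104 to 211 in DEN_CAF_SOR. The lowest value was in the library numbered 4 in all 4 carcinogen groups.

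Fah (fumarylacetoacetate hydrolase, the last step, whose loss causes hereditary tyrosinaemia, ENSMUSG00000030630, chr7:84234367-84255930, minus strand) was the steadiest of the 9, with a 2.12-fold range over the 25 libraries. Untreated mice held 386, 342, 396, 367 and 374 FPKM, and DEN mice 189 to 369 with a median of 282. All 6 DEN mice lay below the Untreated median and 5 of 6 below the lowest Untreated mouse, while DEN 1 overlapped. The values were 376, 291, 324, 326 and 316 FPKM in DEN_CAF, 368, 324, 310.4 and 369 in DEN_SOR, and 328, 299, 401, 390.5 and 309.8 in DEN_CAF_SOR.

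Tdo2 (tryptophan dioxygenase, the first and rate-limiting step of hepatic tryptophan breakdown, ENSMUSG00000028011, chr3:81864397-81883509, minus strand) stood within 209 to 271 FPKM in Untreated mice. In the carcinogen groups it reached both lower and higher. DEN mice ran from 87.1 through a median of 345 to 444 FPKM. DEN_CAF mice held 503, 404, 107, 100.0 and 182, DEN_SOR mice 199.7, 507, 250.5 and 89.8, and DEN_CAF_SOR mice 270.2, 344, 171, 116 and 498. The lowest value of each carcinogen group was again that of the mouse numbered 4.

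In the methionine cycle, Mat1a (the adult liver's methionine adenosyltransferase, ENSMUSG00000037798, chr14:40826992-40846369, plus strand) makes S-adenosylmethionine. It measured 781, 1172, 867, 904 and 879 FPKM in Untreated mice, and 132 to 1582 with a median of 699 in DEN. DEN_CAF mice held 1527, 659, 446, 448 and 454 FPKM, DEN_SOR mice 1965, 1488, 1062 and 621, and DEN_CAF_SOR mice 827, 736, 1415, 702 and 987. Of the DEN mice 5 lay below the Untreated range and 1 above it, and of the DEN_SOR mice 3 of 4 lay above the DEN median.

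Gnmt (glycine N-methyltransferase, which spends S-adenosylmethionine on glycine, ENSMUSG00000002769, chr17:47036590-47040094, minus strand) was the most abundant of the 9, at a mean of 1223 FPKM over all libraries, and had the widest range, 67.1-fold. Untreated mice held 1071, 1181, 1645, 1447 and 1253 FPKM, and DEN mice 37.2 to 2354 with a median of 1305. The values were 1928, 1341, 451, 298 and 1246 in DEN_CAF, 2497, 1392, 728 and 529 in DEN_SOR, and 1202, 1287, 975, 435 and 2094 in DEN_CAF_SOR. In each carcinogen group both mice numbered 3 and 4 were lower than all the others, and the Untreated mice numbered 3 and 4 were the highest of theirs. Untreated 3, 4 and 5, the libraries with Xist reads, all held more Gnmt than Untreated 1 and 2.

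Bhmt (betaine-homocysteine methyltransferase, which returns homocysteine to methionine, ENSMUSG00000074768, chr13:93753183-93774469, minus strand) ran from 619 to 1074 FPKM in Untreated, 152 to 1133 in DEN, 508 to 1244 in DEN_CAF, 369.6 to 747 in DEN_SOR and 383 to 1179 in DEN_CAF_SOR. How reads shared with its neighbouring copy Bhmt2 were counted is not given in the sources used here. The same holds for Sds and its copy Sdsl.

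Sds (serine dehydratase, which turns serine to pyruvate for gluconeogenesis, ENSMUSG00000029597, chr5:120614591-120621997, plus strand) held 107, 132, 114, 196 and 156 FPKM in Untreated mice. DEN mice ran from 63.7 through a median of 121 to 564, and DEN_CAF mice held 323, 148, 60.8, 55.6 and 115. DEN_SOR mice held 438, 391, 416 and 130.3, and DEN_CAF_SOR mice 174, 90.6, 881, 203 and 190.0 FPKM. In DEN_SOR, 3 of 4 mice exceeded every Untreated mouse and the fourth lay within their range, and all 4 exceeded the DEN median, although DEN 1 was higher than any of them.

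**Figure D1:**
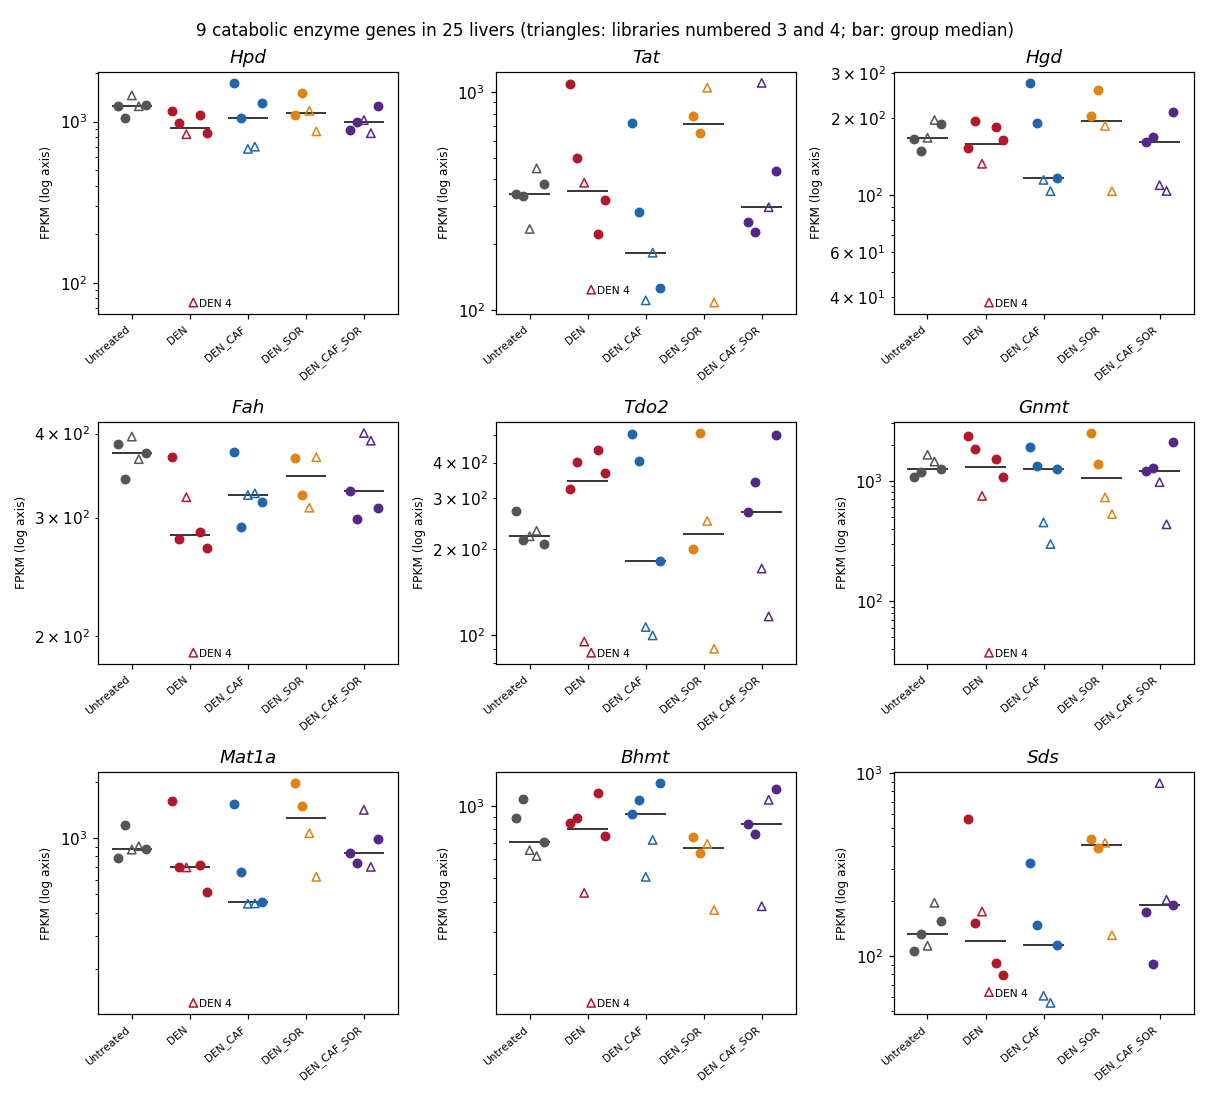
Level of each enzyme (FPKM, log axis) in the 25 livers by group. Points are mice, triangles the libraries numbered 3 and 4, and bars group medians. Carcinogen groups spread wider than Untreated for all 9 genes, DEN 4 is the lowest DEN library in every panel, and Fah spans only 189 to 401 FPKM.

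Ordered by group mean, Untreated stood highest for Hpd (1254 ± 141 FPKM, SD, n = 5), Fah (373 ± 20.6) and Gnmt (1319 ± 228). DEN_SOR stood highest for Tat (647 ± 397, n = 4), Hgd (188 ± 63.9), Mat1a (1284 ± 576) and Sds (344 ± 144), DEN for Tdo2 (287 ± 157, n = 6) and DEN_CAF for Bhmt (893 ± 287, n = 5). In all 36 pairs of groups next to each other in these orders, the means differed by less than the larger of the 2 SDs. Such pairs are the closest by construction, and groups farther apart could differ by more. Hpd in Untreated and DEN (835 ± 395) and Fah in Untreated and DEN (286 ± 59.9) did so, as did Sds in DEN_SOR and DEN_CAF (141 ± 109).

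The first question the design asks is what the carcinogen did to these enzymes. Fah had the clearest value: its mean was 286 ± 59.9 FPKM in DEN (SD, n = 6) against 373 ± 20.6 in Untreated (n = 5), a log2 difference of -0.41 (SE 0.15, 95% interval -0.71 to -0.11), with an adjusted p of 0.152 in limma. Hpd differed by -0.96 (SE 0.47, -1.93 to 0.01, adjusted p = 0.307), Gnmt by -0.77 (SE 0.75, -2.32 to 0.78) and Mat1a by -0.66 (SE 0.44, -1.56 to 0.25). Hgd (-0.42), Bhmt (-0.39), Tat (0.05), Tdo2 (0.05) and Sds (0.01) completed the set.

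In DEN against Untreated, limma on log2(FPKM + 1) with Benjamini-Hochberg adjustment called 0 of the 9, where 2.04% of the 12741 genes tested were called at an adjusted p under 0.05. At an unadjusted p under 0.05, 1 of the 9 passed, Fah, against 16.5% of all genes. On the recovered reads, edgeR called 0 of 9 (4.89% of its genes) and DESeq2 called 1 of 9 (7.89%), Fah, at a log2 difference of -0.46 (SE 0.16, adjusted p = 0.0448). Over the other settings tried, the adjusted p for Fah ran from 0.0448 to 0.6. The median log2 difference of the 9 was -0.41 against 0.03 over all genes, with 6 of 9 below 0. Without DEN 4, limma called 0 of 9 (1.6% of all genes). Leaving it out brought that median to 0.0013 with 4 of 9 below 0, Fah to -0.30 (SE 0.13, adjusted p = 0.305), Hpd to -0.35 (SE 0.22, adjusted p = 0.531) and Gnmt to 0.10 (SE 0.49). Without the 3 Untreated libraries that carried Xist reads, 0 of 9 were called (0.345% of all genes) and the median was -0.37.

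In DEN_CAF against Untreated the 9 had a median log2 difference of -0.27 with 8 of 9 below 0, led by Tat at -0.62 (SE 0.60, 95% interval -1.87 to 0.62) and Gnmt at -0.62 (SE 0.78, -2.24 to 0.99). None of the 9 was called by limma (1.01% of all genes), edgeR (1.97%) or DESeq2 (3.59%), and 0 had an unadjusted p under 0.05. In DEN_SOR against Untreated the median was -0.06, with Sds the largest at 1.17 (SE 0.61, -0.09 to 2.43, adjusted p = 0.306 in limma) and Mat1a at 0.37 (SE 0.49, -0.63 to 1.37). Again 0 of 9 were called by limma (2.62%), edgeR (6.99%) or DESeq2 (11.1%), with 0 by limma at an unadjusted p under 0.05. In DEN_CAF_SOR against Untreated the median was -0.02, Sds was at 0.69 (SE 0.58, -0.51 to 1.88), and 0 of 9 were called by limma (0.494%), edgeR (1.45%) or DESeq2 (3.34%), with 0 by limma unadjusted. Without the Untreated libraries with Xist reads, 0 of 9 were called in each of these 3 comparisons (0.259%, 0.385% and 0.126% of all genes), and the medians were -0.20, -0.01 and -0.08. All 4 comparisons share the Untreated mice.

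The next question is whether a drug given after the carcinogen moved the enzymes relative to carcinogen alone. Sorafenib gave the largest differences: Sds 1.16 (SE 0.59, 95% interval -0.05 to 2.38, adjusted p = 0.835 in limma), with means of 344 ± 144 FPKM (SD, n = 4) against 188 ± 189 (n = 6), and Mat1a 1.03 (SE 0.47, 0.06 to 1.99, adjusted p = 0.788), with 1284 ± 576 against 723 ± 476. Hpd was at 0.83 (SE 0.50, -0.20 to 1.87), Gnmt at 0.49 (SE 0.80), Tat at 0.48 (SE 0.62), Hgd at 0.47 (SE 0.37), Fah at 0.29 (SE 0.16), Bhmt at 0.0023 (SE 0.42) and Tdo2 at -0.12 (SE 0.55).

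In DEN_SOR against DEN limma called 0 of the 9 and 0 of all genes (0%), with 1 of 9, Mat1a, and 6.19% of all genes at an unadjusted p under 0.05. By edgeR, too, 0 of 9 were called (0%), and by DESeq2 0 of 9 (0.115%). The median of the 9 was 0.48 against -0.02 over all genes, with 8 of 9 above 0. Without DEN 4, 0 of 9 were called (0%), and the median was 0.17 with 6 of 9 above 0, Mat1a was at 0.60 (SE 0.37, adjusted p = 0.857) and Sds at 0.94 (SE 0.60, adjusted p = 0.857).

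With caffeine, the largest differences from DEN were Hpd at 0.68 (SE 0.47, 95% interval -0.29 to 1.65), Tat at -0.67 (SE 0.58, -1.87 to 0.52) and Bhmt at 0.53 (SE 0.40, -0.29 to 1.34). In DEN_CAF against DEN 0 of 9 were called by limma (0.00785% of all genes), edgeR (0%) or DESeq2 (0.0603%), and 0 of 9 had an unadjusted p under 0.05 in limma. The median was 0.14, and -0.33 without DEN 4.

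With both drugs, all 9 differences from DEN were above 0, from 0.06 for Tdo2 to 0.68 for Sds (SE 0.55, -0.46 to 1.82), with a median of 0.42. Fah was at 0.29 (SE 0.15, -0.01 to 0.60) and Mat1a at 0.64 (SE 0.44, -0.26 to 1.55). In DEN_CAF_SOR against DEN 0 of 9 were called by limma (0%), edgeR (0%) or DESeq2 (0%), and 0 of 9 had an unadjusted p under 0.05 against 2.72% of all genes in limma. Without DEN 4, 5 of 9 were above 0 and the median was 0.015. These 3 comparisons share the DEN mice.

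Caffeine added to sorafenib gave a median log2 difference of -0.20 over the 9, from -0.48 for Sds (SE 0.61, 95% interval -1.75 to 0.78) to 0.42 for Bhmt (SE 0.44, -0.49 to 1.32). Sorafenib added to caffeine gave a median of 0.24, with Sds at 0.96 (SE 0.58, -0.23 to 2.15), Tat at 0.79 (SE 0.60, -0.45 to 2.04) and Bhmt at -0.11 (SE 0.41). The test of whether the drugs' effects add, the caffeine by sorafenib interaction, gave its largest value for Hpd at -0.89 (SE 0.70, -2.33 to 0.56). Without DEN 4 the interaction was -0.27 for Hpd (SE 0.32) and largest for Gnmt at 0.71 (SE 0.71), with 0 of 9 called (0% of all genes). For DEN_CAF_SOR against DEN_SOR, DEN_CAF_SOR against DEN_CAF and the interaction, 0 of 9 were called by limma (0% of all genes in each) or edgeR (0% in each), and 0 of 9 by DESeq2 (0%, 0% and 0.0492%). At an unadjusted p under 0.05, 0 of 9 passed in limma in each, against 3.39%, 2.95% and 3.97% of all genes. The intervals leave room for differences of over 1 log2 unit in most of the 9 genes, so these values do not show that the groups were alike.

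**Figure D2:**
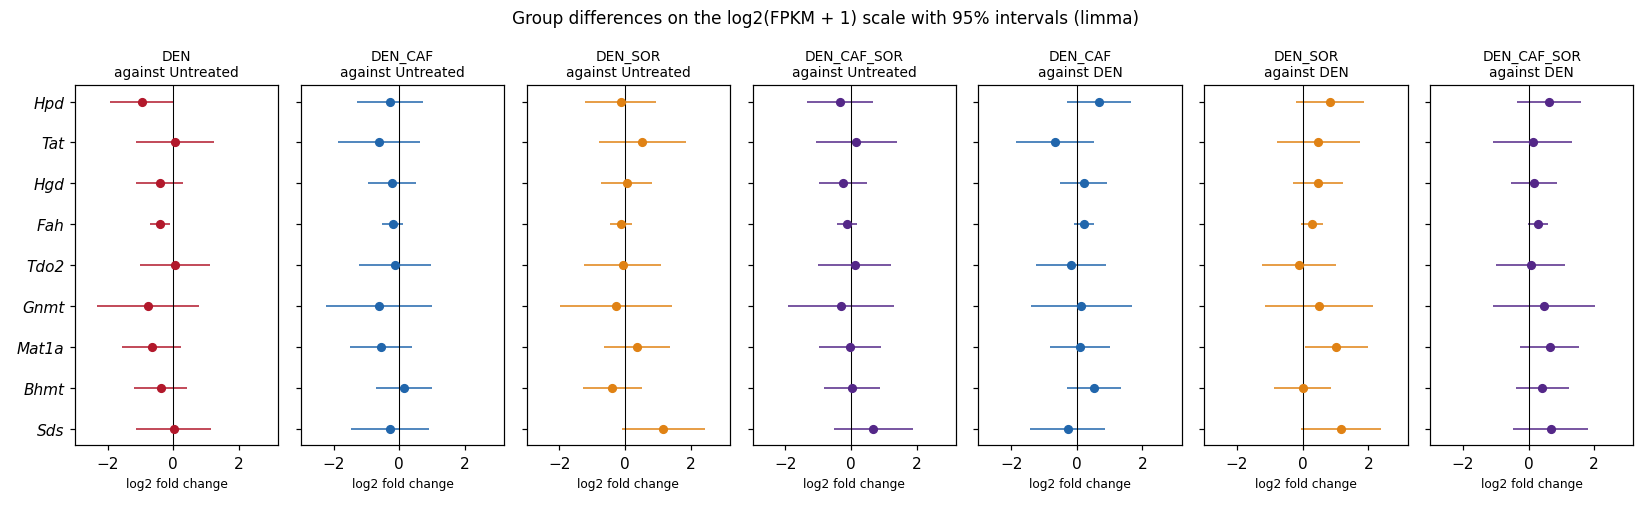
Log2 difference of each enzyme with its 95% interval (limma, log2(FPKM + 1) scale) in the 7 comparisons with Untreated or DEN. Fah has the narrowest intervals and Gnmt the widest, and the intervals of Fah in DEN against Untreated (-0.71 to -0.11) and Mat1a in DEN_SOR against DEN (0.06 to 1.99) leave out 0 before adjustment over all genes.

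In the 9 comparisons of 2 groups, 0 of the 9 enzymes had groups without overlap. Of all genes, 3.93%, 5.51%, 7.28% and 4.6% had none in DEN, DEN_CAF, DEN_SOR and DEN_CAF_SOR against Untreated. The shares were 0.267%, 0.699% and 0.29% in DEN_CAF, DEN_SOR and DEN_CAF_SOR against DEN, and 0.856% and 0.997% in DEN_CAF_SOR against DEN_SOR and DEN_CAF. Mice of the same group differed more in the carcinogen groups than in Untreated. Within the Untreated group the SD of log2(FPKM + 1) had a median of 0.22 over the 9 enzymes, close to the 0.23 of all tested genes. In DEN it was 1.07 (0.61 without DEN 4), in DEN_CAF 0.77, in DEN_SOR 0.71 and in DEN_CAF_SOR 0.63, while the medians of all genes were 0.32 (0.28 without DEN 4), 0.26, 0.34 and 0.25. All 9 had a larger SD in each of the 4 carcinogen groups than in Untreated, and all 9 still did with DEN 4 left out. Over all 12741 genes, 68.2%, 55.4%, 68.8% and 54.7% had a larger SD in DEN, DEN_CAF, DEN_SOR and DEN_CAF_SOR, and 33.6% in all 4. The 9 are not independent of each other, and the difference in spread was not tested. Adding 1 to FPKM understates the spread of low genes, and all 9 are abundant. The shares of all genes, here and by gene below, therefore compare genes of unlike level.

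By gene, the spread was widest for Gnmt in DEN (SD 2.20, larger than in 99.7% of genes, and 0.65 without DEN 4), followed by Hpd in DEN (1.51, above 99.0%, and 0.22 without DEN 4). In the other carcinogen groups it was widest for Tat in DEN_SOR (1.48, above 99.2%), for Sds in DEN_CAF_SOR (1.20, above 99.4%) and for Gnmt in DEN_CAF (1.14, above 98.8%), where Tat and Tdo2 were close at 1.09 and 1.07. In DEN without DEN 4, Sds was widest (1.11, above 98.3%). Fah kept the smallest SD of the 9 in every group, from 0.08 in Untreated to 0.32 in DEN. Without DEN 4, Hpd (0.22) and Hgd (0.22) in DEN stood near the 0.28 of all genes.

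**Figure D3:**
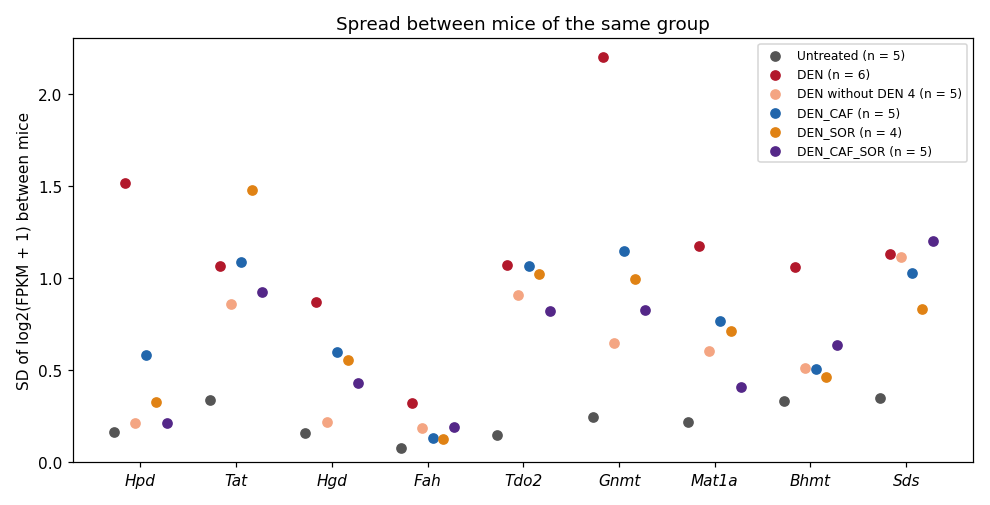
SD between mice of log2(FPKM + 1) for each enzyme, 1 point per group, with DEN shown with and without DEN 4. The Untreated points are the lowest for every gene, the DEN point of Gnmt reaches 2.20, and leaving out DEN 4 brings it to 0.65.

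Part of this spread followed the library number. In the 4 carcinogen groups, libraries numbered 3 and 4 held less Gnmt than the others without overlap in 4 of 4 groups, by a mean log2 difference of -2.01 (-1.48 without DEN 4). Tdo2 was lower by -1.54 on this measure (without overlap in 3 of 4 groups), Bhmt by -0.89 (2 of 4), Hpd by -0.87 (2 of 4), Hgd by -0.87 (4 of 4) and Mat1a by -0.75 (2 of 4). Tat (-0.54), Sds (-0.36) and Fah (0.01) overlapped more, with 0, 1 and 0 groups without overlap. In Untreated the same split gave 0.40 for Gnmt, 0.20 for Sds, 0.18 for Hpd, 0.12 for Hgd and 0.05 for Fah. It gave -0.02 for Tdo2, -0.07 for Mat1a, -0.11 for Tat and -0.47 for Bhmt, so Bhmt was lower in numbers 3 and 4 there as well. Untreated 3 and 4 both carried Xist reads and Untreated 1 and 2 did not. In that group, number and Xist reads cannot be fully told apart. Over all genes 5.9% were lower without overlap in all 4 carcinogen groups, 17.8% in at least 3 and 35% in at least 2, so these enzymes are a few among many.

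Of these 8 libraries, 7 had a mitochondrial share of 13.6% or more, against at most 9.81% in the other carcinogen libraries, and the exception was DEN 4 at 9.58%. Scaled to the reads from outside the mitochondrial chromosome, the differences were -1.77 for Gnmt (4 of 4 groups without overlap), -1.29 for Tdo2 (3 of 4) and -0.62 for Hgd (2 of 4). Bhmt was at -0.65 (2 of 4), Hpd at -0.62 (1 of 4) and Mat1a at -0.51 (1 of 4). Tat was at -0.30 (0 of 4), Sds at -0.12 (1 of 4) and Fah at 0.25 (0 of 4). On this scale 2.13%, 7.86% and 18.1% of all genes were lower without overlap in all 4, at least 3 and at least 2 groups. After subtracting group means, the correlation with the log2 mitochondrial share over 24 libraries without DEN 4 was -0.84 for Tdo2, -0.78 for Gnmt, -0.73 for Hgd and 0.32 for Fah (Spearman -0.67, -0.78, -0.69 and 0.20). It was -0.68 for Bhmt, -0.60 for Hpd, -0.46 for Mat1a, -0.38 for Tat and -0.25 for Sds (Spearman -0.46, -0.56, -0.48, -0.35 and -0.33). These points share group and library depth, and the libraries fall into a cluster of low and a scatter of high shares, so the values are a description only. The labels do not say what the numbers stand for, and the part of the mitochondrial share in these differences was not tested.

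**Figure D4:**
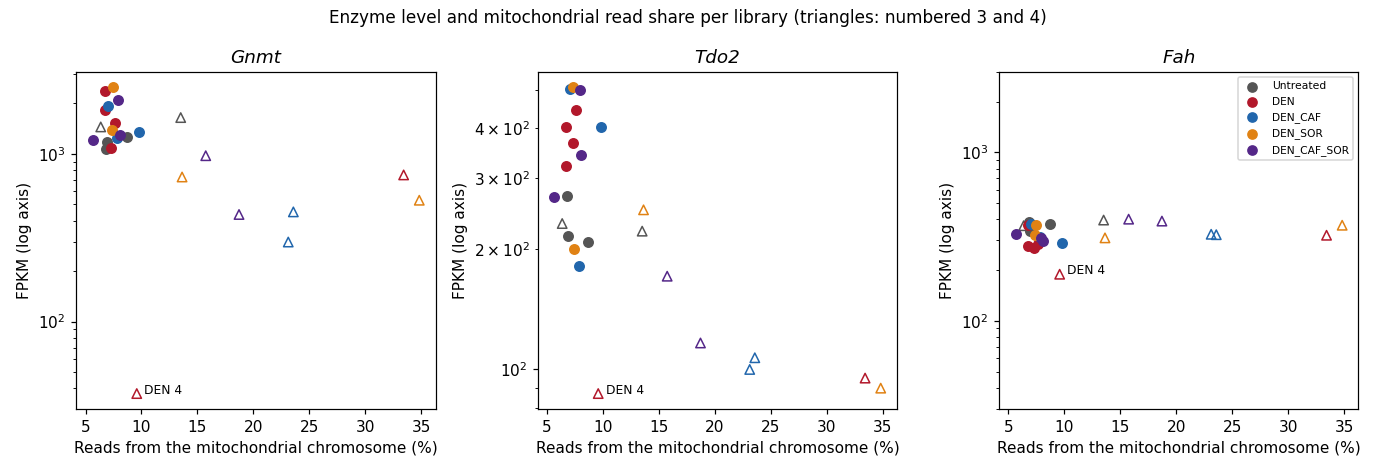
Gnmt, Tdo2 and Fah (FPKM, log axis) against the percent of reads from the mitochondrial chromosome in each library, coloured by group, with triangles for libraries numbered 3 and 4. Gnmt is low in the carcinogen libraries with high mitochondrial shares, and so is Tdo2 except in DEN_SOR 3 (250.5 FPKM at a share of 13.6%). Fah is not low in them, and DEN 4 is low in all 3 genes at a share near those of the other numbers.

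DEN 4 was the lowest DEN library for 9 of 9 enzymes, and the 9 together took 0.280% of its reads against 1.03% to 2.18% in the other DEN mice and 1.47% to 1.69% in Untreated mice. Gnmt was 37.2 and Hpd 75.5 FPKM there, the lowest of all 25 libraries. Its 7 hepatocyte-defining markers summed to 89825 FPKM, the highest of any library, a sum made mostly of Alb at 58619 FPKM (median over 25 libraries 22649) and Apoa1 at 22554 (7961). Fgb was also above its median (1172 against 1099), and 4 of the 7 were below theirs: Ttr at 5262 (5365), Serpina1c at 1994 (2798), Apob at 171 (217) and Cps1, the entry enzyme of the urea cycle, the lowest of 25 at 52.7 (339.8). Its pericentral markers summed to 98.4 FPKM where the group medians were 2081 to 4509. Its periportal markers, Sds among them, summed to 577 where the group medians were 1997 to 2582. Both sums were the lowest of the 25 libraries. Its Kupffer and macrophage markers summed to 34.9, the lowest in DEN, but the genes of that list did not all go the same way. Clec4f (6.81, median over 25 libraries 31.3), Vsig4, Timd4, Marco, Cd5l and Adgre1 were below their medians. Csf1r (4.01, median 3.83) and Cd68 (10.002, median 4.985) were above theirs. The monocyte and neutrophil markers of DEN 4 summed to 455, the highest of all, made mostly of S100a8 (137) and S100a9 (239). Its proliferation markers summed to 21.5, also the highest. In bulk tissue, fewer cells of a type and less RNA per cell cannot be told apart. The part of these cell markers in the low enzyme levels was not tested. At the other end, DEN_CAF 1 was the highest of its group for 8 of 9 enzymes and DEN_SOR 4 the lowest of its group for 8 of 9.

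Most of the enzymes varied together between mice of the same group. Pearson correlations of log2(FPKM + 1) after subtracting group means, over 25 libraries, were 0.92 for Hpd with Gnmt, 0.89 for Hgd with Gnmt, 0.86 for Hpd with Hgd, 0.85 for Hgd with Tdo2, 0.74 for Gnmt with Tdo2 and 0.63 for Hpd with Tdo2. Without DEN 4 these were 0.78, 0.76, 0.71, 0.89, 0.76 and 0.74. Tat correlated with Sds at 0.89 and with Mat1a at 0.82, and Mat1a with Sds at 0.78, which stood at 0.88, 0.84 and 0.84 without DEN 4. Mat1a also followed Gnmt (0.84), Hpd (0.81) and Hgd (0.77) over 25 libraries, as closely as it followed Sds, and less so without DEN 4 (0.67, 0.63 and 0.54). The correlation of Fah with Tdo2 was 0.00 and, without DEN 4, -0.39. Tat and Fah, the first and last enzymes of tyrosine breakdown, correlated at 0.46 (0.31 without DEN 4), and Gnmt with Bhmt at 0.76 (0.46). All values share the libraries' depth and number, and are descriptions without a test.

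**Figure D5:**
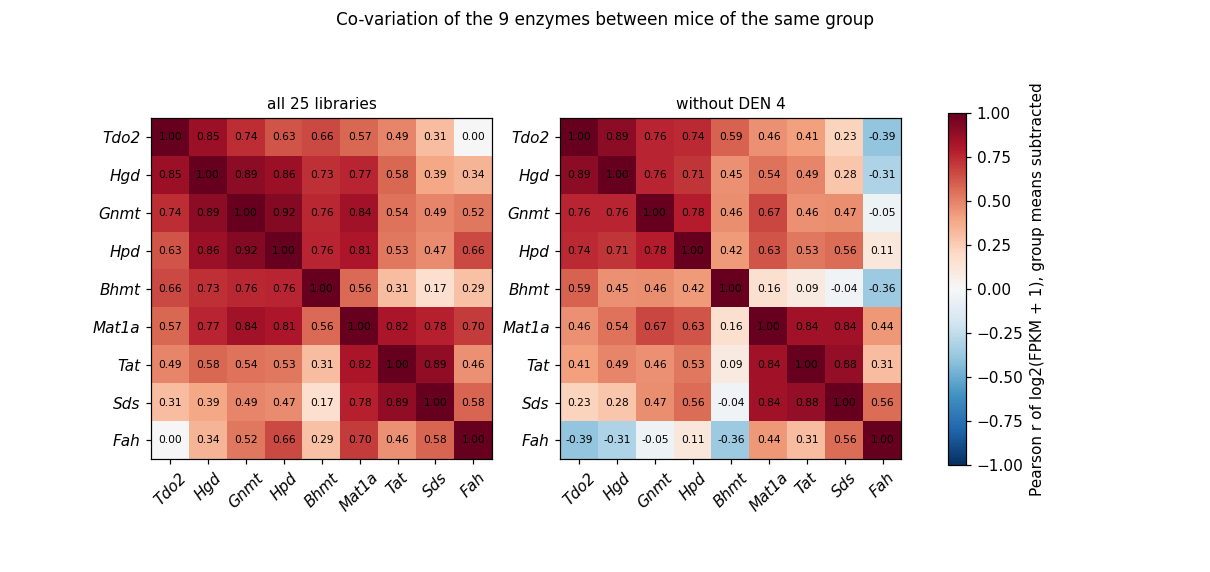
Pearson correlation of each pair of enzymes between mice of the same group, over all 25 libraries (left) and without DEN 4 (right). Without DEN 4 all pairs among Tdo2, Hgd, Gnmt and Hpd are at 0.71 or more and those among Tat, Sds and Mat1a at 0.84 or more, while over all 25 libraries Hpd with Tdo2 is at 0.63 and Mat1a with Gnmt at 0.84.

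Among 10645 protein-coding genes outside the 9, those closest by the same measure over 25 libraries were as follows. Gnmt and Hpd shared their nearest gene, Mtarc1 (0.96 and 0.93), an amidoxime-reducing enzyme of the mitochondrial outer membrane, followed by Retreg2 (0.93) for Gnmt and Cyp4f14 (0.93) for Hpd. Hgd was nearest to Cps1 (0.95) and Hpgd (0.93), and Bhmt to Cyp8b1 (0.90), an enzyme of bile acid synthesis, and Gm5096 (0.88). Mat1a was nearest to Asl (0.94), a urea cycle enzyme, and Gpat4 (0.93). Tat was nearest to Pole4 (0.90) and Asl (0.88), Sds to Mfsd2a (0.90) and its own copy Sdsl (0.90), and Fah to Mfn2 (0.91) and Rhbg (0.88). The search included DEN 4 and was not repeated without it, so the part of that library in these values was not tested.

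Of 80 other genes of amino acid, one-carbon and methionine pathways, 79 were tested. In DEN against Untreated, 66 of 79 were below 0 with a median of -0.27 against 0.03 over all genes (-0.15 with 56 of 79 below 0 without DEN 4). Limma called 0 of them (2.04% of all genes), and 18 of 79 had an unadjusted p under 0.05 against 16.5% of all genes. By edgeR 3 of 79 fell (4.89% of all genes were called): Shmt1, a serine hydroxymethyltransferase (-0.57, adjusted p = 0.0308), Pipox, which oxidises sarcosine, the product of Gnmt (-0.61, adjusted p = 0.0334), and Amdhd1 of histidine breakdown (-0.71, adjusted p = 0.0225). DESeq2 called 7 of 80 (1 higher, 6 lower) against 7.89% of all genes, so that the called shares by edgeR and DESeq2 were near those of all genes. In edgeR without DEN 4, 2 of 79 were called lower (2.54% of all genes), Amdhd1 (-0.56, adjusted p = 0.0337) and Gamt (-0.93, adjusted p = 0.0315), while Shmt1 stood at -0.46 (0.0662) and Pipox at -0.51 (0.074). In edgeR with the Xist-carrying Untreated libraries left out, 0 of 79 were called (0.291% of all genes), with 16 at an unadjusted p under 0.05 and Shmt1, Pipox and Amdhd1 at -0.58, -0.66 and -0.49 (adjusted p from 0.214 to 0.36). By list in limma, 19 of 19 genes of lysine and branched-chain breakdown were below 0 (median -0.44), as were 8 of 9 of choline and one-carbon metabolism (-0.46) and 15 of 18 of the methionine cycle and transsulfuration, Mat1a, Gnmt and Bhmt included (-0.29). In the tryptophan list 5 of 10 were below 0 (-0.04). Without DEN 4 these counts were 19 of 19 (-0.27), 7 of 9 (-0.28), 11 of 18 (-0.07) and 4 of 10 (0.12).

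In DEN_SOR against Untreated, limma called 1 of 79 (2.62% of all genes): Gamt, the methyltransferase of creatine synthesis, fell by 0.93 on the log2 scale (SE 0.25, adjusted p = 0.0448), from 162 ± 34.8 FPKM (SD, n = 5) to 83.5 ± 10.3 (n = 4), with no overlap between the groups. The call was lost in limma without any 1 of Untreated 1, 3, 4 and 5 or DEN_SOR 1, 2 and 3 (-0.85 to -0.95, adjusted p from 0.0699 to 0.138), on scaling to non-mitochondrial reads (-0.80, 0.103), with a pseudocount of 10 (-0.86, 0.053), with no filter on low values (-0.93, 0.058), within the libraries numbered 3 and 4 (-0.73, 0.333) and without the Untreated libraries with Xist reads (-0.84, 0.309), so the difference stayed of a like size while its adjusted p was above 0.05. In edgeR Gamt fell as well (-1.02, adjusted p = 0.0272), and with it Shmt1 (0.0246), Pipox (0.0167), Amdhd1 (0.0425) and Ido2 of tryptophan breakdown (0.0487), while Acmsd, a branch-point enzyme of the kynurenine pathway, rose by 1.82 (0.0234). That makes 6 of 79 by edgeR against 6.99% of all genes, and DESeq2 called 12 of 80 (2 higher, 10 lower) against 11.1%. In edgeR with the Xist-carrying Untreated libraries left out, 0 of 79 were called (0.379% of all genes), with 14 at an unadjusted p under 0.05 and Gamt at -1.08 (adjusted p = 0.16). The median of the 79 in limma was -0.28. In the remaining 8 comparisons limma called 0 of 79, with 0 to 8 at an unadjusted p under 0.05, edgeR called 0, and DESeq2 called 3 in DEN_CAF and 2 in DEN_CAF_SOR against Untreated and 0 in the others.

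Of 12 transcription factors known to act on these genes, among them the glucocorticoid receptor Nr3c1, Hnf4a and Cebpa, limma called 0 in any comparison. The number at an unadjusted p under 0.05 ran from 0 to 5, the 5 being in DEN_SOR against Untreated, where 18.6% of all genes passed. In that comparison edgeR called 2 of 12 lower (6.99% of all genes), Ppara (-0.96, adjusted p = 0.0462), a fatty acid sensor, and Prox1 (-0.87, adjusted p = 0.038), and DESeq2 called 3 (11.1%). With the Xist-carrying Untreated libraries left out, edgeR called 0 of 12, with Ppara at -1.14 (adjusted p = 0.171) and Prox1 at -0.95 (0.186). In DEN against Untreated 11 of 12 were below 0 (median -0.24), with Nr3c1 at -0.28 (SE 0.17, adjusted p = 0.446 in limma) and Hnf4a, the exception, at 0.28 (SE 0.23). Without DEN 4, 10 of 12 were below 0 (median -0.16), with Nr3c1 at -0.24 and Hnf4a at 0.26, and without the Untreated libraries with Xist reads Hnf4a was at -0.06 (SE 0.30). Of 12 glucocorticoid-responsive liver genes, 0 were called in any comparison by limma, edgeR or DESeq2, and 0 to 2 had an unadjusted p under 0.05 in limma. Their median log2 difference was 0.77 in DEN_SOR against DEN (10 of 12 above 0) and 0.53 in DEN_SOR against Untreated (9 of 12), beside 0.48 for Tat and 1.16 for Sds in the former. Within that list, in DEN_SOR against DEN, Per1, also a clock gene, was at 1.46 (SE 0.62, adjusted p = 0.787) and Fkbp5 at 1.20 (SE 0.61, adjusted p = 0.837). These genes were named after their values were seen and do not stand for the list. By edgeR, Per1 was at 1.20 (adjusted p = 0.793) and Fkbp5 at 0.73 (adjusted p = 0.850). Without DEN 4 the list's median in DEN_SOR against DEN was 0.59 (10 of 12 above 0), with Per1 at 1.32 and Fkbp5 at 1.09. With the Xist-carrying Untreated libraries left out, the median in DEN_SOR against Untreated was 0.20 (7 of 12 above 0).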

How the data were processed

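RNA from whole liver was isolated with QIAzol and RNeasy columns and made into SMARTer libraries, per the labels' protocols. The submitters' processing notes name HISAT2 2.0.5, featureCounts 1.5.0-p3 and GRCm39. Strand use and annotation release were not stated, so reads of overlapping genes are uncertain. Although the file names speak of FPKM, each deposited value is a signal equal to whole reads divided by a library's size factor. Reads were recovered from it (100% of values whole within 0.01 read), and FPKM was then computed from those reads, library totals and the listed gene lengths. The 12741 genes tested stood in all 5 tables and reached 1 FPKM in 4 or more libraries.

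All 25 libraries entered a single limma 3.58.1 model (R 4.3.3) of log2(FPKM + 1) with 1 coefficient per group and trended eBayes. Tests were two-sided, p-values were adjusted after Benjamini and Hochberg per comparison (10 in all), and 0.05 was the threshold. Where no tool is named beside an adjusted p, limma gave it. The design had assumed FPKM files, so edgeR 4.0.16 (quasi-likelihood) and DESeq2 1.42.0 on recovered reads served as alternatives. The code was tested on simulated data. Differences on this scale understate those of low genes. Titles give each library its own mouse, and no 2 libraries of a group were repeats (chi-square per degree of freedom 19.0 to 423 over 51 pairs). The members, gene lists and comparisons were chosen with earlier results of these data known. Genes named were the 9 enzymes throughout, up to 5 called pathway genes per direction, all called regulators and glucocorticoid-responsive genes, and for each enzyme the 2 protein-coding genes with the highest within-group correlation. Those of Tdo2 are not reported here. Pathway genes and regulators called by edgeR but not by limma, and Nr3c1, Hnf4a, Cebpa, Per1 and Fkbp5, were named after their values were seen. Tables and figures used Python 3.11.15, pandas 2.3.3 and matplotlib 3.10.9.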

Additional observations from a re-analysis of the deposited data

Results flagged for a closer look

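Of 45 sets of values (9 enzymes in 5 groups), 7 held a mouse farther from its nearest neighbour than Dixon's 95% limit allows for its group size, where chance gives about 1 in 20. The sets are not independent, since the enzymes share mice. Hpd in DEN 4 was 75.45 FPKM, the lowest of its group, with the next at 836. Tat in DEN_CAF 1 was 723 FPKM, with the next at 281, and Mat1a in the same mouse was 1527, with the next at 659. Tat in DEN_CAF_SOR 3 was 1107 FPKM, with the next at 434, and Sds in the same mouse was 881, with the next at 203. Sds in DEN 1 was 564 FPKM, with the next at 175. Sds in DEN_SOR 4 was 130.3 FPKM, the lowest of its group, with the next at 391.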

How the results depend on the processing

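Each of 90 enzyme-by-comparison values was recomputed under up to 42 alternative settings, giving 2259 values. The number of enzymes called stayed at 0 in every comparison and setting except DEN against Untreated with DESeq2, where it was 1. In all, 205 values changed sign, of which 35 moved by more than 1 SE of the value first given. None of these passed a test, and the cause was not tested. Restricting each comparison with Untreated to libraries not numbered 3 or 4 turned Hgd to 0.048, Gnmt to 0.49 and Bhmt to 0.022 in DEN, Tdo2 to 0.53, Gnmt to 0.34 and Sds to 0.44 in DEN_CAF, and Gnmt to 0.68 in DEN_SOR. Restricting them to libraries 3 and 4 turned Tat to -0.57 and Tdo2 to -1.31 in DEN, Hgd to -0.38 and Mat1a to -0.13 in DEN_SOR, and Fah to 0.054 and Tdo2 to -0.68 in DEN_CAF_SOR. The Untreated libraries numbered 3 and 4 both carried Xist reads. With libraries not numbered 3 or 4, DEN_CAF_SOR gave Tat -0.61 and Sds -0.13 against DEN, Tat -0.012 and Sds -0.29 against DEN_CAF, and the interaction of Tat was -0.69. With libraries 3 and 4, Tdo2 was 0.72 in DEN_SOR against DEN, Tat 0.76, Mat1a 0.29 and Sds 0.86 in DEN_CAF_SOR against DEN_SOR, Hpd 0.43 in DEN_CAF_SOR against DEN_CAF, and the interaction of Sds 1.71. Leaving out 1 mouse at a time, with DEN 4 giving each change of sign, Gnmt ran from -1.09 to 0.10 in DEN against Untreated, and against DEN from -0.72 to 0.52 in DEN_CAF, -0.38 to 0.83 in DEN_SOR and -0.39 to 0.80 in DEN_CAF_SOR. Hgd ran from -0.14 to 0.34 in DEN_CAF and -0.17 to 0.29 in DEN_CAF_SOR against DEN. Settings chosen after seeing the data gave 5 of these changes in comparisons with Untreated: without DEN 4 and the Untreated libraries with Xist reads, Hgd was 0.061 and Gnmt 0.31 in DEN, edgeR without DEN 4 gave Gnmt 0.085 in DEN, and edgeR without the libraries with Xist reads gave Bhmt -0.42 in DEN_CAF and -0.45 in DEN_CAF_SOR.

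With the replicate number as a block, 0 of 9 enzymes were called in each of the 10 comparisons, and the Gamt call in DEN_SOR against Untreated was lost (adjusted p = 0.0537). The labels do not say that a number pairs mice: over 46 same-number pairs the correlation of deviations from group means ran from -0.28 to 0.54 (median 0.13), 25 were over 0.1, and 8 of 25 libraries correlated best with their own number. The width of the intervals rests on the spread between libraries of a group, at 4 to 6 mice a group. The parts of read depth and library number in that spread were not tested.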
